A study of Mus musculus with 8 samples.

Results

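Chemokine receptors other than CCR7 were described here in spleen XCR1+ dendritic cells as 8 genes, Xcr1, Ccr2, Ccr9, Cxcr3, Cx3cr1, Cxcr4, Ccr6 and Cxcr5, out of 19938 genes measured. They were taken by gene symbol, and each was measured by 1 row of the array table. The 8 samples were dendritic cells sorted from spleens of Il12b-EYFP reporter mice in the steady state, in which the yellow fluorescent protein marks cells that express Il12b, the gene of the p40 subunit of interleukin 12. All were gated as lineage-negative, Bst2-negative or low, CD11c high and CD8α+, and CCR7 and the reporter then divided them into CCR7+Il12b+ cells (n = 2), CCR7+Il12b- cells (n = 3) and immature CCR7-Il12b- cells (n = 3). The sources used here give no strain, age or sex of the mice, and XCR1 itself was not part of the stated gate.

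Chemokine receptors are G protein-coupled receptors that let a leukocyte move towards the source of a secreted or membrane-bound chemokine. XCR1 is the defining receptor of the cross-presenting lineage of conventional dendritic cells, and its ligand XCL1 is made by activated CD8 T cells and NK cells. A dendritic cell that matures is known to exchange the receptors that hold it in or bring it to peripheral tissue for CCR7, which guides it to the T cell zone. The 8 receptors cover contact with lymphocytes (XCR1), exit from bone marrow and recruitment to inflamed tissue (CCR2, CXCR3), homing to gut and thymus (CCR9), binding to the membrane-bound chemokine fractalkine (CX3CR1), retention in bone marrow and stroma (CXCR4), attraction to epithelia (CCR6) and entry into B cell follicles (CXCR5).

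Sequences upstream of 5 receptor genes are shown because 4 of them, Xcr1, Ccr9, Ccr2 and Cxcr3, fell together in the CCR7+ fractions and Ccr6 was the member with the opposite change at a level above background. Each is the 250 bases before the annotated transcript start in RefSeq, build GRCm38.p6, on the strand of the gene, and capitals mark a motif found by a search of both strands. Sequences were in the table for 7 of the 8 members, Cxcr5 being the other one. Ccr6 has 2 annotated starts, and the one with the kappa B match is shown.
Xcr1, chr9:123862030-123862279, minus strand: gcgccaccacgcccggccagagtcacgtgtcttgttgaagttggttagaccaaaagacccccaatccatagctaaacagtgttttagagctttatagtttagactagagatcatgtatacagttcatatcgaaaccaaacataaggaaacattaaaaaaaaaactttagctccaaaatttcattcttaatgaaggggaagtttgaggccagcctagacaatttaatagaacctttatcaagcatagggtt
Ccr9, chr9:123766961-123767210, plus strand: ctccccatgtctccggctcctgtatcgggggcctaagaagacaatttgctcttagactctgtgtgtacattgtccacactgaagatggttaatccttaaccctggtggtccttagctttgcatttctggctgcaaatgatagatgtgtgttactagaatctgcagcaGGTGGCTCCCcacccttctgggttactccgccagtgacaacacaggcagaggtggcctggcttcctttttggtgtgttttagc
Ccr2, chr9:124101933-124102182, plus strand: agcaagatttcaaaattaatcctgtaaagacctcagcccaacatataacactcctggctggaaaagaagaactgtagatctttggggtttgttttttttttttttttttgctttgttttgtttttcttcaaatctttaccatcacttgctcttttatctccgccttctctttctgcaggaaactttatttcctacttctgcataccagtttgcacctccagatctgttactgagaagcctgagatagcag
Cxcr3, chrX:101734148-101734397, minus strand: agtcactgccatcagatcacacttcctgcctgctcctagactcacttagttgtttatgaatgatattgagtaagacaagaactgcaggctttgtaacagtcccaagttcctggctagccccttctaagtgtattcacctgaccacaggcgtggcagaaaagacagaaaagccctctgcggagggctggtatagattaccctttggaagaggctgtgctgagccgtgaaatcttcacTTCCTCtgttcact
Ccr6, chr17:8242276-8242525, plus strand: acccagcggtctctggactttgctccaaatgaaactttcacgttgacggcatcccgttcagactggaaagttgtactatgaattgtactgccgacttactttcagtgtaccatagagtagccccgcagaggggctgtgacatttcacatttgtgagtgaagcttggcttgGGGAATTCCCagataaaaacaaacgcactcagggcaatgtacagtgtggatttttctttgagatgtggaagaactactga
The kappa B motif searched was GGGA, any 4 bases, then CC, which was found upstream of Ccr9 and Ccr6 and in 17.6% of 32851 promoter windows of this length. The core GAGGAA, bound by the lineage factor PU.1, was found upstream of Cxcr3 and of the other start of Ccr6, and in 23.3% of all windows. The interferon-stimulated response element, GAAA, any 2 bases and GAAA (2.98% of all windows), the ETS-IRF composite element, GGAA, any 2 bases and GAAA (2.30%), and the AP-1 site TGANTCA (6.75%) were in none of the members' windows. The letters of the first 2 of these 3 motifs can overlap. A match describes letters only.

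Each sample was measured on 1 array, and the values are deposited log2 expression values. The medians of the 8 arrays lay between 5.25 and 5.46 and followed the fractions. They were 5.25 to 5.33 on immature, 5.36 to 5.41 on CCR7+Il12b- and 5.39 and 5.46 on CCR7+Il12b+ arrays. Correlations between arrays over all genes were 0.987 within CCR7+Il12b+, 0.986 to 0.992 within CCR7+Il12b- and 0.992 to 0.996 within immature cells. They were 0.911 to 0.920 between CCR7+Il12b+ and immature arrays and 0.942 to 0.968 between CCR7+Il12b- and immature arrays. Between the CCR7+ fractions they were 0.973 to 0.981, close to the lowest value within CCR7+Il12b-. Ccr7 and Il12b, on which the cells were sorted, checked the labels: Ccr7 had 12.77 and 12.46 in CCR7+Il12b+ cells, 12.22, 12.24 and 12.20 in CCR7+Il12b- cells and 8.50, 8.86 and 8.56 in immature cells, and Il12b had 12.35 and 12.22 in CCR7+Il12b+ cells, 10.84, 10.82 and 10.77 in CCR7+Il12b- cells and 6.88, 7.09 and 7.11 in immature cells. Il12b thus lay well above the immature level in the reporter-negative CCR7+ cells too. All 19 measured markers of XCR1+ dendritic cells were above background in at least 1 fraction. A background mark was set from 1190 genes of olfactory and vomeronasal receptors, 95% of which averaged under 4.98, and 7 of the 8 members had a fraction mean above it, Cxcr5 being the exception.

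Both CCR7+ fractions had less Xcr1, Ccr2, Ccr9 and Cxcr3 mRNA than immature cells, Cxcr4 lay between 10.96 and 11.32 on all 8 arrays, and Ccr6 and Cxcr5 were higher in CCR7+Il12b- cells at low levels. Of the 8 members, 4 fell and 1 rose in CCR7+Il12b+ against immature cells, where limma called 32.0% of all genes (17.9% lower, 14.1% higher) under its threshold, an adjusted p of 0.05. In CCR7+Il12b- against immature cells 4 fell and 2 rose, where 23.6% of all genes were called (14.5% lower, 9.10% higher). In CCR7+Il12b+ against CCR7+Il12b- cells 3 fell and 0 rose, where 7.08% of all genes were called (4.47% lower, 2.61% higher), and at an unadjusted p under 0.05 the members' counts were again 3 and 0. The median log2 change of the 8 members was -1.42 in CCR7+Il12b+ against immature cells (0.09 over all genes), -0.99 in CCR7+Il12b- against immature cells (0.06) and -0.57 between the CCR7+ fractions (0.02). The samples are bulk RNA, so fewer cells with a transcript and less of it per cell cannot be told apart.

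**Figure D1:**
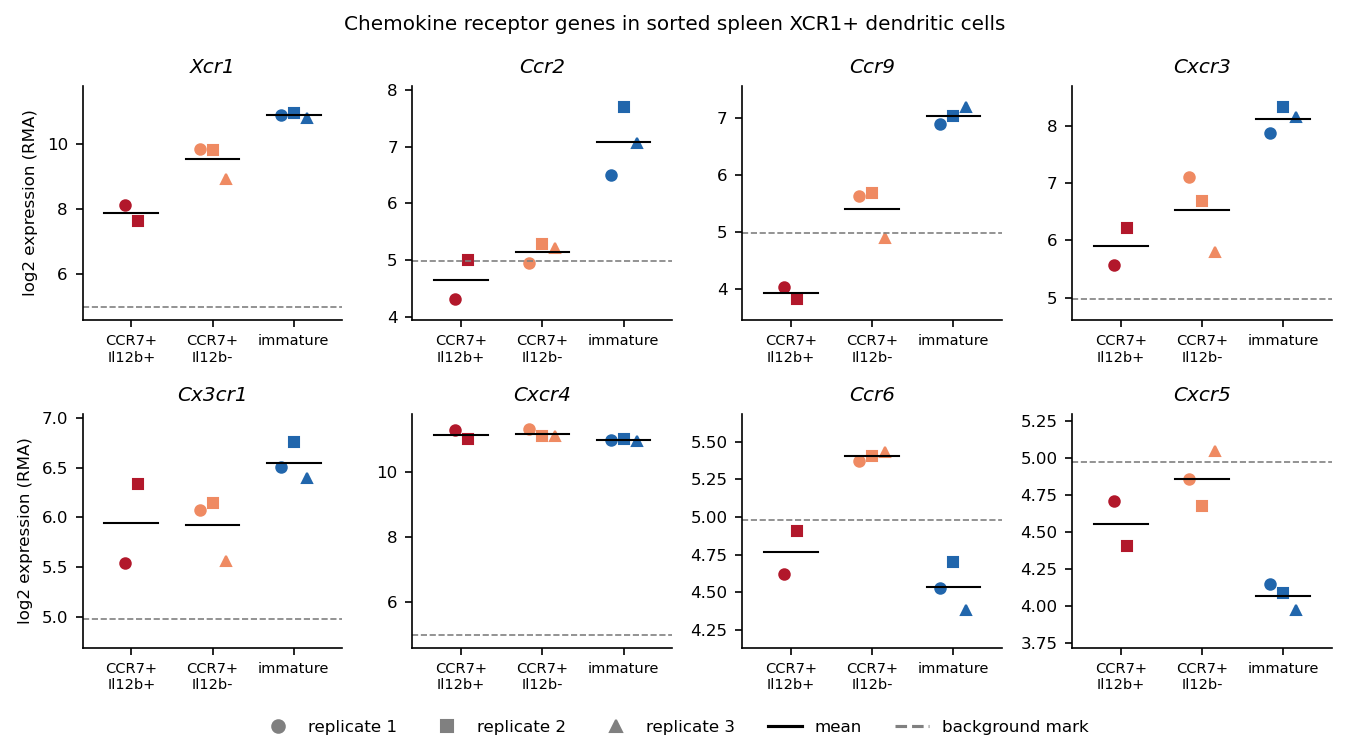
Log2 expression of the 8 receptor genes on each array (points, shaped by replicate number) with the mean of each fraction (black line) and the background mark (dashed). Xcr1, Ccr2, Ccr9 and Cxcr3 are lower on every CCR7+ array than on every immature array, while all 8 arrays lie between 10.96 and 11.32 for Cxcr4 and Cxcr5 stays near or below the mark.

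The groups did not overlap for 6 of the 8 members in CCR7+Il12b+ against immature cells (57.1% of all genes), 5 of them lower (23.6% of all genes) and 1 higher (33.5%). They did not overlap for 8 of 8 in CCR7+Il12b- against immature cells (41.3%), 5 lower (19.2%) and 3 higher (22.1%), nor for 3 of 8 between the CCR7+ fractions (29.6%), 3 lower (14.3%) and 0 higher (15.3%). Both comparisons with immature cells use the same 3 immature samples and are given side by side.

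Xcr1 encodes the receptor by which these cells are named. It had 8.12 and 7.64 on the CCR7+Il12b+ arrays, 9.85, 9.83 and 8.94 on the CCR7+Il12b- arrays, and 10.89, 10.98 and 10.82 on the immature arrays. The 3 fractions did not overlap, and the transcript was above the background mark on every array. Xcr1 fell by 3.02 on the log2 scale in CCR7+Il12b+ against immature cells (SE 0.25, 8.09-fold lower, adjusted p = 4.07e-06) and was 2.57-fold lower in CCR7+Il12b- than in immature cells (log2 change -1.36 ± 0.22 SE, adjusted p = 0.00115). Between the CCR7+ fractions it fell by 1.66 in CCR7+Il12b+ cells (SE 0.25, 3.15-fold lower, adjusted p = 0.00256), so that each step in the order immature, CCR7+Il12b-, CCR7+Il12b+ was larger than the spread. The markers of XCR1+ dendritic cells moved beside it. Of 19 measured, 14 fell and 3 rose in CCR7+Il12b+ against immature cells, and 11 fell and 3 rose in CCR7+Il12b- against immature cells. Their mean level was 8.40 to 8.62 on the CCR7+Il12b+ arrays, 9.13 to 9.61 on the CCR7+Il12b- arrays and 9.91 to 9.99 on the immature arrays. Tlr3, the receptor of double-stranded RNA, was 4.82 log2 units lower in CCR7+Il12b+ than in immature cells (log2 change -4.82 ± 0.34 SE, adjusted p = 1.48e-06). Batf3 and Id2, transcription factors that the lineage needs, and Ly75, the gene of the endocytic receptor DEC-205, were the 3 markers that rose in both comparisons with immature cells.

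Ccr9, the receptor of the thymic and intestinal chemokine CCL25, followed the same order. It had 4.03 and 3.82 in CCR7+Il12b+ cells, 5.62, 5.67 and 4.89 in CCR7+Il12b- cells, and 6.89, 7.03 and 7.19 in immature cells. Both CCR7+Il12b+ arrays were below the background mark, and no array of one fraction overlapped another fraction. Ccr9 was at least 4.16-fold lower in CCR7+Il12b+ than in immature cells (log2 change -3.11 ± 0.21 SE, adjusted p = 1.12e-06), 3.12-fold lower in CCR7+Il12b- than in immature cells (-1.64 ± 0.19, adjusted p = 0.000124), and at least 1.33-fold lower in CCR7+Il12b+ than in CCR7+Il12b- cells (-1.47 ± 0.21, adjusted p = 0.00205). A fold given as "at least" counts the low fraction at the background mark where its value lay below it. Ccr9 is also a known receptor of plasmacytoid dendritic cells, which the gate on Bst2 was set against. Of 10 markers of these cells, all above the mark in some fraction, 5 fell and 1 rose in CCR7+Il12b+ against immature cells, and 4 fell and 2 rose in CCR7+Il12b- against immature cells. Their mean level was 6.31 to 6.43 in CCR7+Il12b+ cells, 6.52 to 6.62 in CCR7+Il12b- cells and 6.59 to 6.83 in immature cells. Among them Siglech, a surface lectin of plasmacytoid cells, fell by 1.42 in CCR7+Il12b+ against immature cells (SE 0.12, adjusted p = 6.43e-06). Spib, a transcription factor of plasmacytoid and B cells, rose by 1.41 in the same comparison (SE 0.30, adjusted p = 0.00373) and by 1.69 in CCR7+Il12b- against immature cells (SE 0.27, adjusted p = 0.000968). The part of such cells in the Ccr9 values was not tested.

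Ccr2 binds CCL2, CCL7 and CCL12 and is best known for releasing monocytes from the bone marrow. It had 4.32 and 4.995 in CCR7+Il12b+ cells, 4.95, 5.29 and 5.22 in CCR7+Il12b- cells, and 6.51, 7.70 and 7.06 in immature cells. The CCR7+ fractions overlapped each other near the background mark, and the immature arrays stood above both. Ccr2 was at least 4.30-fold lower in CCR7+Il12b+ than in immature cells (log2 change -2.43 ± 0.30 SE, adjusted p = 7.39e-05) and 3.83-fold lower in CCR7+Il12b- than in immature cells (-1.94 ± 0.26, adjusted p = 0.000358). Between the CCR7+ fractions the change was -0.50 with a 95% interval of -1.15 to 0.16 (adjusted p = 0.446), a difference within the spread. It was -0.16 without CCR7+Il12b+ replicate 1 and -0.83 without CCR7+Il12b+ replicate 2, neither of them called. Of 14 measured monocyte and macrophage markers, 6 fell and 2 rose in CCR7+Il12b+ against immature cells, and 4 fell and 3 rose in CCR7+Il12b- against immature cells. The mean of that list was 6.45 to 6.47 in CCR7+Il12b+ cells, 6.77 to 6.97 in CCR7+Il12b- cells and 6.77 to 6.88 in immature cells, with Fcgr1, Mertk and Chil3 below the mark in every fraction. Plac8 (log2 change -3.27 ± 0.19 SE) and Lyz2, the gene of lysozyme (-3.11 ± 0.29), were among those that fell in CCR7+Il12b+ cells, and Vcam1, an adhesion molecule of splenic macrophages, rose (3.17 ± 0.19). CD11b+ dendritic cells, which are also known to carry CCR2, have 12 markers here, of which 5 rose and 2 fell in CCR7+Il12b+ against immature cells, and 7 rose and 1 fell in CCR7+Il12b- against immature cells. The mean of this list was 6.65 to 6.71 in CCR7+Il12b+ cells, 6.89 to 7.06 in CCR7+Il12b- cells and 6.003 to 6.37 in immature cells, with Clec4a4, Mgl2 and Clec10a below the mark in every fraction. Monocytes and CD11b+ dendritic cells lack CD8α, on which all samples were gated. The part of such cells in the Ccr2 values was not tested.

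Cxcr3, the receptor of the interferon-induced chemokines CXCL9, CXCL10 and CXCL11, had 5.57 and 6.22 in CCR7+Il12b+ cells, 7.11, 6.68 and 5.80 in CCR7+Il12b- cells, and 7.88, 8.33 and 8.15 in immature cells. All 5 CCR7+ arrays were below the 3 immature arrays, and the CCR7+ fractions overlapped. Cxcr3 fell 4.69-fold in CCR7+Il12b+ against immature cells (log2 change -2.23 ± 0.32 SE, adjusted p = 0.000253) and 3.01-fold in CCR7+Il12b- against immature cells (-1.59 ± 0.29, adjusted p = 0.00210). Between the CCR7+ fractions the change was -0.64 (95% interval -1.34 to 0.07, adjusted p = 0.339). Replicate 3 of CCR7+Il12b-, the lowest of its fraction for Cxcr3, Xcr1, Ccr9 and Cx3cr1, moved that result past the threshold when left out (-1.002, adjusted p = 0.0241). The change was -0.31 without CCR7+Il12b+ replicate 1 (adjusted p = 0.736), -0.35 without CCR7+Il12b- replicate 1 and -0.96 without CCR7+Il12b+ replicate 2, none of them called. Cxcr3 is also known on T and NK cells. Of 10 measured T cell markers, 3 fell and 0 rose in CCR7+Il12b+ against immature cells (1 higher at an unadjusted p under 0.05), and 0 fell and 3 rose in CCR7+Il12b- against immature cells (6 higher and 0 lower at an unadjusted p under 0.05). Thy1, a surface glycoprotein of T cells, was 0.64 higher in CCR7+Il12b- than in immature cells (SE 0.18, adjusted p = 0.0266). The mean level of the T cell list was 4.94 to 5.20 in CCR7+Il12b+ cells, 5.36 to 5.42 in CCR7+Il12b- cells and 5.11 to 5.16 in immature cells. Of 11 NK cell markers, 1 fell and 0 rose in CCR7+Il12b+ against immature cells (1 higher at an unadjusted p under 0.05), and 1 fell and 2 rose in CCR7+Il12b- against immature cells. Their mean level was 4.26 to 4.43 in CCR7+Il12b+ cells, 4.64 to 4.71 in CCR7+Il12b- cells and 4.53 to 4.58 in immature cells. Klrd1, the gene of CD94, was the NK cell marker that fell, with mean levels of 4.81 in CCR7+Il12b+ cells, 7.19 in CCR7+Il12b- cells and 8.21 in immature cells and log2 changes against immature cells of -3.41 ± 0.31 SE (adjusted p = 7.88e-06) in CCR7+Il12b+ and -1.03 ± 0.27 (adjusted p = 0.0187) in CCR7+Il12b- cells. Of the T cell markers 7 of 10, and of the NK cell markers 4 of 11, were above the mark in some fraction. Cd3d, Cd3g, Ncr1, Klrb1c, Eomes and Il2rb were among those below it in every fraction. Those called higher in CCR7+Il12b- against immature cells were Cd3e, Thy1 and Lat of the T cell list and Nkg7 and Il2rb of the NK cell list. The calls of Lat and Nkg7 were lost after median centring, quantile normalization or cyclic loess. That of Il2rb was lost after quantile normalization or cyclic loess, while Thy1 kept its call after each of these normalizations. The part of T and NK cells in the Cxcr3 values was not tested.

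**Figure D2:**
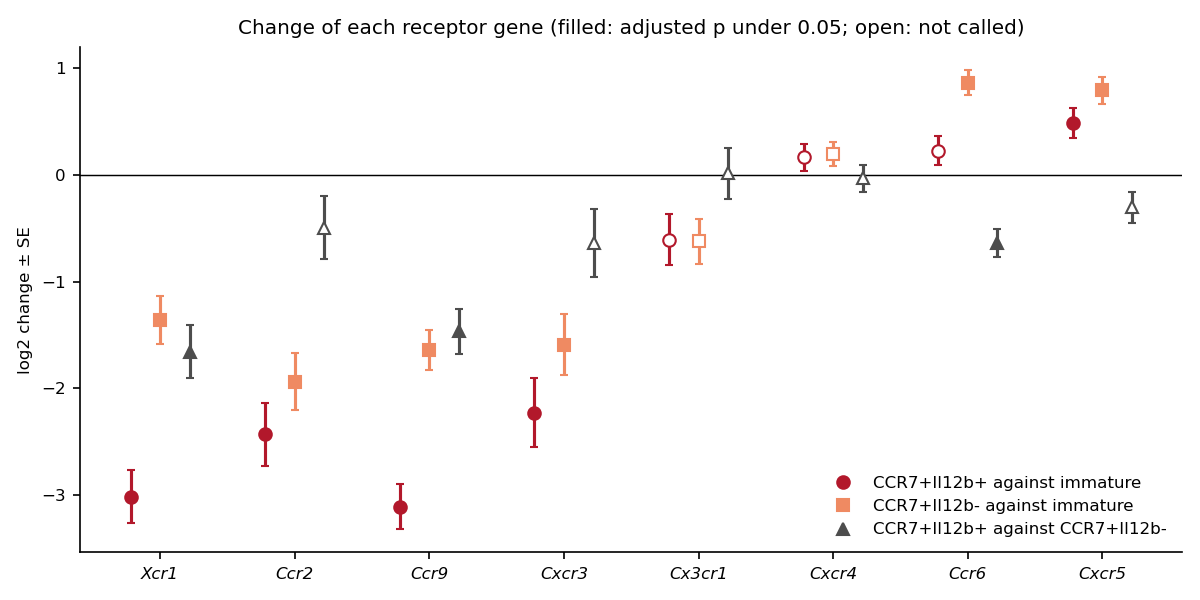
Log2 change of each receptor gene with its standard error in the 3 comparisons, filled where the adjusted p was under 0.05 and open otherwise. Xcr1 and Ccr9 are filled and below 0 in all 3 comparisons, Ccr2 and Cxcr3 in both comparisons with immature cells, and Cxcr4 and Cx3cr1 are open throughout.

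Cx3cr1, the fractalkine receptor, marks non-classical monocytes and tissue macrophages and is carried by part of the CD8α+ dendritic cells of the spleen. It had 5.54 and 6.34 in CCR7+Il12b+ cells, 6.08, 6.15 and 5.56 in CCR7+Il12b- cells, and 6.50, 6.76 and 6.39 in immature cells. The immature arrays were the 3 highest, and the ranges of the CCR7+ fractions overlapped. The change was -0.61 in CCR7+Il12b+ against immature cells (95% interval -1.13 to -0.09, adjusted p = 0.0739) and -0.62 in CCR7+Il12b- against immature cells (-1.09 to -0.16, adjusted p = 0.0557), neither of which passed the threshold. Both lay close to it. CCR7+Il12b+ against immature cells passed without CCR7+Il12b+ replicate 2 (-1.01, adjusted p = 0.0119) or without CCR7+Il12b- replicate 3 (adjusted p = 0.0472), but its change was -0.21 without CCR7+Il12b+ replicate 1 (adjusted p = 0.521). CCR7+Il12b- against immature cells passed without either CCR7+Il12b+ array (adjusted p = 0.0240), and its change was -0.44 without CCR7+Il12b- replicate 3 (adjusted p = 0.203). Between the CCR7+ fractions the change was 0.01 (95% interval -0.51 to 0.54, adjusted p = 0.988).

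Cxcr4, the receptor of CXCL12, which retains leukocytes in bone marrow and stromal niches, had 11.29 and 11.02 in CCR7+Il12b+ cells, 11.32, 11.13 and 11.11 in CCR7+Il12b- cells, and 10.99, 11.03 and 10.96 in immature cells. The lowest CCR7+Il12b+ array lay inside the immature range, while the CCR7+Il12b- arrays were all above it by a small margin. The change was 0.16 in CCR7+Il12b+ against immature cells (95% interval -0.11 to 0.44, adjusted p = 0.354), with the sign turned after quantile normalization (-0.03). It was 0.19 in CCR7+Il12b- against immature cells (-0.05 to 0.44, adjusted p = 0.257) and -0.03 between the CCR7+ fractions (-0.31 to 0.24, adjusted p = 0.944). These intervals leave out a change of 1 log2 unit in either direction.

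Ccr6, the receptor of CCL20, was highest in the reporter-negative CCR7+ cells. It had 4.62 and 4.91 in CCR7+Il12b+ cells, 5.37, 5.40 and 5.43 in CCR7+Il12b- cells, and 4.53, 4.70 and 4.39 in immature cells. Only the CCR7+Il12b- arrays were above the background mark, and the other fractions overlapped below it. Ccr6 rose at least 1.34-fold in CCR7+Il12b- against immature cells (log2 change 0.86 ± 0.12 SE, adjusted p = 0.000373). It fell in CCR7+Il12b+ against CCR7+Il12b- cells, also by at least 1.34-fold (-0.64 ± 0.13, adjusted p = 0.0155), a call that was lost without CCR7+Il12b- replicate 2 (adjusted p = 0.0544) or CCR7+Il12b+ replicate 1 (adjusted p = 0.117). The change was 0.23 in CCR7+Il12b+ against immature cells (adjusted p = 0.224).

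Cxcr5, the receptor of the follicular chemokine CXCL13, had 4.71 and 4.40 in CCR7+Il12b+ cells, 4.86, 4.68 and 5.05 in CCR7+Il12b- cells, and 4.15, 4.09 and 3.97 in immature cells. The immature arrays were the 3 lowest, but every fraction mean was below the background mark, so no fold is given. In CCR7+Il12b- against immature cells Cxcr5 rose by 0.79 on the log2 scale (SE 0.13, adjusted p = 0.00107). It rose by 0.49 in CCR7+Il12b+ against immature cells (SE 0.14, adjusted p = 0.0232), and this call was lost after median centring (adjusted p = 0.0536), quantile normalization (0.104) or cyclic loess (0.136), and without immature replicate 2 (0.0580), immature replicate 3 (0.0821) or CCR7+Il12b+ replicate 1 (0.152). The CCR7+ fractions differed by -0.30 (95% interval -0.62 to 0.01, adjusted p = 0.297). Ccr6 and Cxcr5 are both carried by B cells. Of 10 measured B cell markers, 3 rose and 0 fell in CCR7+Il12b- against immature cells (6 and 0 at an unadjusted p under 0.05), and 1 rose and 1 fell in CCR7+Il12b+ against immature cells. Between the CCR7+ fractions 0 rose and 1 fell (0 and 4 at an unadjusted p under 0.05), Cd79b with a log2 change of -1.15 ± 0.20 SE (adjusted p = 0.00652). Their mean level was 5.0007 to 5.19 in CCR7+Il12b+ cells, 5.25 to 5.59 in CCR7+Il12b- cells and 4.87 to 5.05 in immature cells. Ms4a1, the gene of CD20, was 1.51 log2 units higher in CCR7+Il12b- than in immature cells (SE 0.17, adjusted p = 0.000104), and Cd79b, of the B cell receptor complex, was 0.57 higher (SE 0.18, adjusted p = 0.0406). Of these 10 markers 6 were above the mark in some fraction, and Cd79a, Ebf1, Fcer2a and Cr2 were below it in every fraction. A lineage-negative gate is commonly set against B cells, though the labels do not list the markers in it. The part of B cells in the Ccr6 and Cxcr5 values was not tested.

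**Figure D3:**
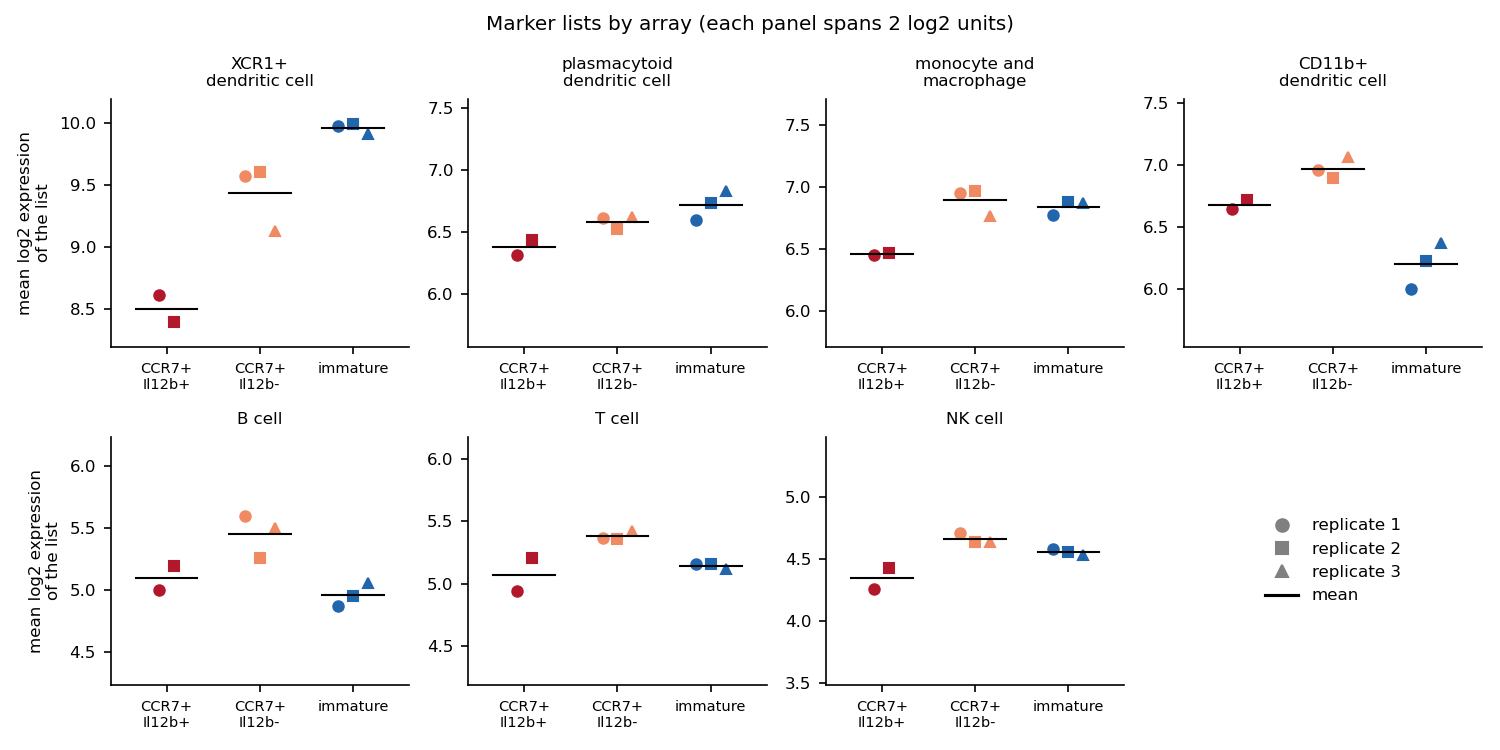
Mean log2 expression of each marker list on each array (points, shaped by replicate number) with the mean of each fraction (black line), every panel spanning 2 log2 units. The XCR1+ dendritic cell list lies at 8.40 to 8.62 in CCR7+Il12b+ cells and at 9.91 to 9.99 in immature cells. The B cell list is highest in CCR7+Il12b- cells, at 5.25 to 5.59. So are the T cell (5.36 to 5.42), NK cell (4.64 to 4.71) and CD11b+ dendritic cell (6.89 to 7.06) lists.

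Of the 8 receptor genes, 5 lie on mouse chromosome 9, and Ccr9, Xcr1 and Ccr2 belong to 1 cluster there. In the order of the RefSeq annotation the 9 protein-coding genes measured from Lztfl1 to Ccr2 are Lztfl1, Ccr9, Fyco1, Cxcr6, Xcr1, Ccr1, Ccr1l1, Ccr3 and Ccr2. The fall of the 3 members was not shared by all genes between them. Cxcr6, a receptor of memory T and NKT cells between Ccr9 and Xcr1, changed by 0.17 ± 0.17 SE in CCR7+Il12b+ against immature cells (adjusted p = 0.488) and by 0.14 ± 0.16 in CCR7+Il12b- against immature cells (adjusted p = 0.582). Cxcr6 lay near the background mark in immature cells, at 5.25, 5.56 and 4.93, so it had little room to fall. Fyco1, an adaptor of vesicle transport, had a mean of 7.13 in immature cells. It changed by 0.10 in CCR7+Il12b+ and by 0.04 in CCR7+Il12b- against immature cells (adjusted p = 0.639 and 0.862). Ccr1, Ccr1l1 and Ccr3 were below the background mark in all fractions. Lztfl1, a regulator of ciliary trafficking that lies next to Ccr9, fell by 1.10 in CCR7+Il12b+ against immature cells (SE 0.24, adjusted p = 0.00409) and had a change of -0.36 in CCR7+Il12b- against immature cells (adjusted p = 0.272). No difference between neighbours was tested.

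**Figure D4:**
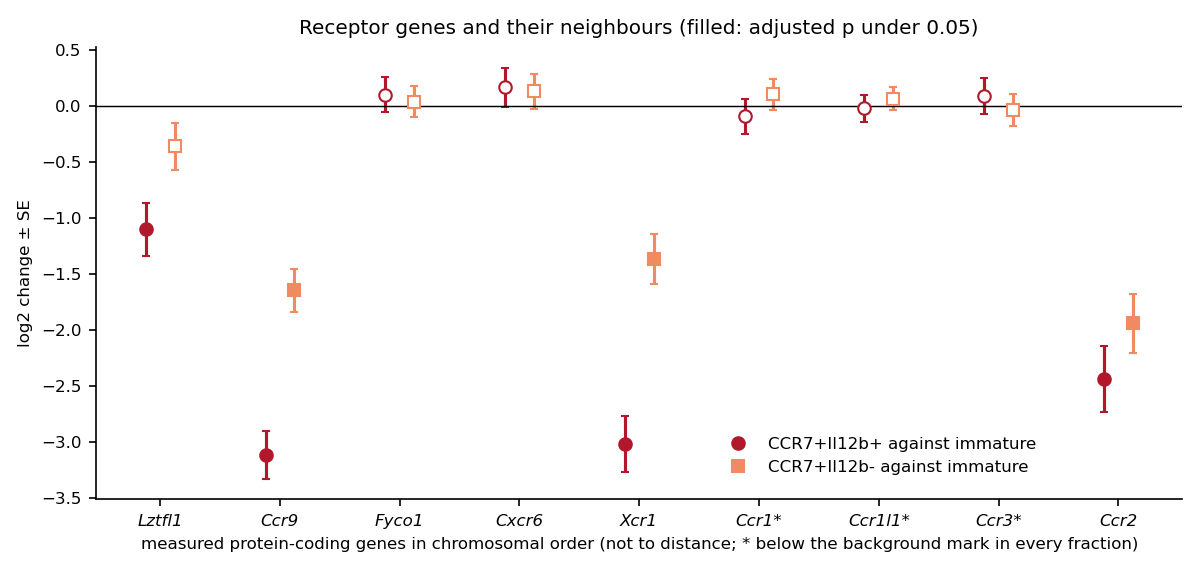
Log2 change with its standard error of the measured protein-coding genes around Ccr9, Xcr1 and Ccr2 on chromosome 9, in chromosomal order and not to distance, filled where the adjusted p was under 0.05. Ccr9, Xcr1 and Ccr2 lie between -1.36 and -3.11, while Fyco1 and Cxcr6 between them lie at 0.04 to 0.17. The level of Cxcr6 is near the background mark.

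Among the remaining chemokine receptors, 14 of 15 listed genes were measured and 8 of these were below the background mark in every fraction. In CCR7+Il12b+ against immature cells 4 rose, the sort gene Ccr7 included, and 0 fell (5 and 0 at an unadjusted p under 0.05 in limma's test). The same counts were found in CCR7+Il12b- against immature cells. Between the CCR7+ fractions 0 rose and 0 fell (2 and 1 at an unadjusted p under 0.05). Ccrl2, an atypical receptor that binds chemerin and does not signal, had 8.44 and 8.35 in CCR7+Il12b+ cells, 8.11, 8.84 and 8.33 in CCR7+Il12b- cells, and 7.004, 7.75 and 7.60 in immature cells. It rose by 0.94 in CCR7+Il12b+ (SE 0.24, adjusted p = 0.00991) and by 0.98 in CCR7+Il12b- (SE 0.21, adjusted p = 0.00625) against immature cells, and the first of these calls was lost without either CCR7+Il12b+ array (adjusted p = 0.0598 without replicate 1 and 0.0513 without replicate 2). Cxcr1, a receptor of neutrophil-attracting chemokines, rose by 0.62 in CCR7+Il12b+ (SE 0.14, adjusted p = 0.00435) and by 0.45 in CCR7+Il12b- (SE 0.12, adjusted p = 0.0205) against immature cells. The second call was lost without immature replicate 1 (0.0641), immature replicate 3 (0.0698) or CCR7+Il12b- replicate 3 (0.0684). Ccr10, a receptor of skin-homing and plasma cells, rose by 0.45 in CCR7+Il12b+ against immature cells (SE 0.15, adjusted p = 0.0347), a call lost without any 1 of the 3 immature arrays or without CCR7+Il12b+ replicate 2 and with array weights (adjusted p = 0.0501 to 0.282). Ackr3 was called higher in CCR7+Il12b- against immature cells below the mark.

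The ligands of the 8 receptors were measured for 12 of 12 listed genes, 4 of them below the mark in every fraction. In CCR7+Il12b+ against immature cells 2 rose and 3 fell. In CCR7+Il12b- against immature cells 3 rose and 0 fell (1 lower at an unadjusted p under 0.05). Cxcl12, below the mark in every fraction, was among the genes that rose in both comparisons. The counts between the CCR7+ fractions were 0 higher and 3 lower (0 and 4 at an unadjusted p under 0.05). Cx3cl1, the gene of fractalkine, had 6.60 and 6.41 in CCR7+Il12b+ cells, 6.34, 6.04 and 6.45 in CCR7+Il12b- cells, and 5.41, 5.30 and 5.27 in immature cells, so that every CCR7+ array was above every immature array. It rose 2.27-fold in CCR7+Il12b+ (log2 change 1.18 ± 0.14 SE, adjusted p = 6.19e-05) and 1.93-fold in CCR7+Il12b- (0.95 ± 0.13, adjusted p = 0.000280) against immature cells.

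Of the CXCR3 ligands, Cxcl9 and Cxcl10 were lower in the reporter-positive cells than in both other fractions. Cxcl9 had 10.46 and 10.68 in CCR7+Il12b+ cells, 11.93, 11.97 and 11.81 in CCR7+Il12b- cells, and 11.96, 11.84 and 11.81 in immature cells. It fell 2.45-fold in CCR7+Il12b+ against immature cells (log2 change -1.30 ± 0.12 SE, adjusted p = 9.53e-06) and 2.52-fold against CCR7+Il12b- cells (-1.33 ± 0.12, adjusted p = 0.000207). Its change was 0.04 in CCR7+Il12b- against immature cells (adjusted p = 0.847), where Cxcr3 itself had fallen by 1.59. Cxcl10 had 9.21 and 9.45 in CCR7+Il12b+ cells, 10.36, 10.44 and 9.98 in CCR7+Il12b- cells, and 10.57, 10.61 and 10.59 in immature cells, and fell in CCR7+Il12b+ cells against immature cells (log2 change -1.26 ± 0.15 SE, adjusted p = 6.35e-05) and against CCR7+Il12b- cells (-0.93 ± 0.15, adjusted p = 0.00401). Cxcl11 fell by 0.61 in CCR7+Il12b+ against immature cells (SE 0.19, adjusted p = 0.0284), a call lost after quantile normalization (0.0715) and without immature replicate 2 (0.0811), immature replicate 3 (0.0812) or either CCR7+Il12b+ array (0.0928 and 0.118). Its change of -0.68 in CCR7+Il12b+ against CCR7+Il12b- cells did not pass the threshold (adjusted p = 0.0565). Xcl1, the ligand of XCR1, had 6.22 and 6.57 in CCR7+Il12b+ cells, 7.42, 7.40 and 6.69 in CCR7+Il12b- cells, and 6.62, 6.45 and 6.43 in immature cells. Its rise of 0.67 in CCR7+Il12b- against immature cells (SE 0.19, adjusted p = 0.0226) was lost when either immature replicate 2, immature replicate 3, CCR7+Il12b- replicate 1 or CCR7+Il12b- replicate 2 was left out (adjusted p = 0.0729 to 0.0903), and its change of -0.77 in CCR7+Il12b+ against CCR7+Il12b- cells passed the threshold narrowly (adjusted p = 0.04996) and was lost when any array other than CCR7+Il12b- replicate 3 was left out (adjusted p = 0.0598 to 0.263).

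**Figure D5:**
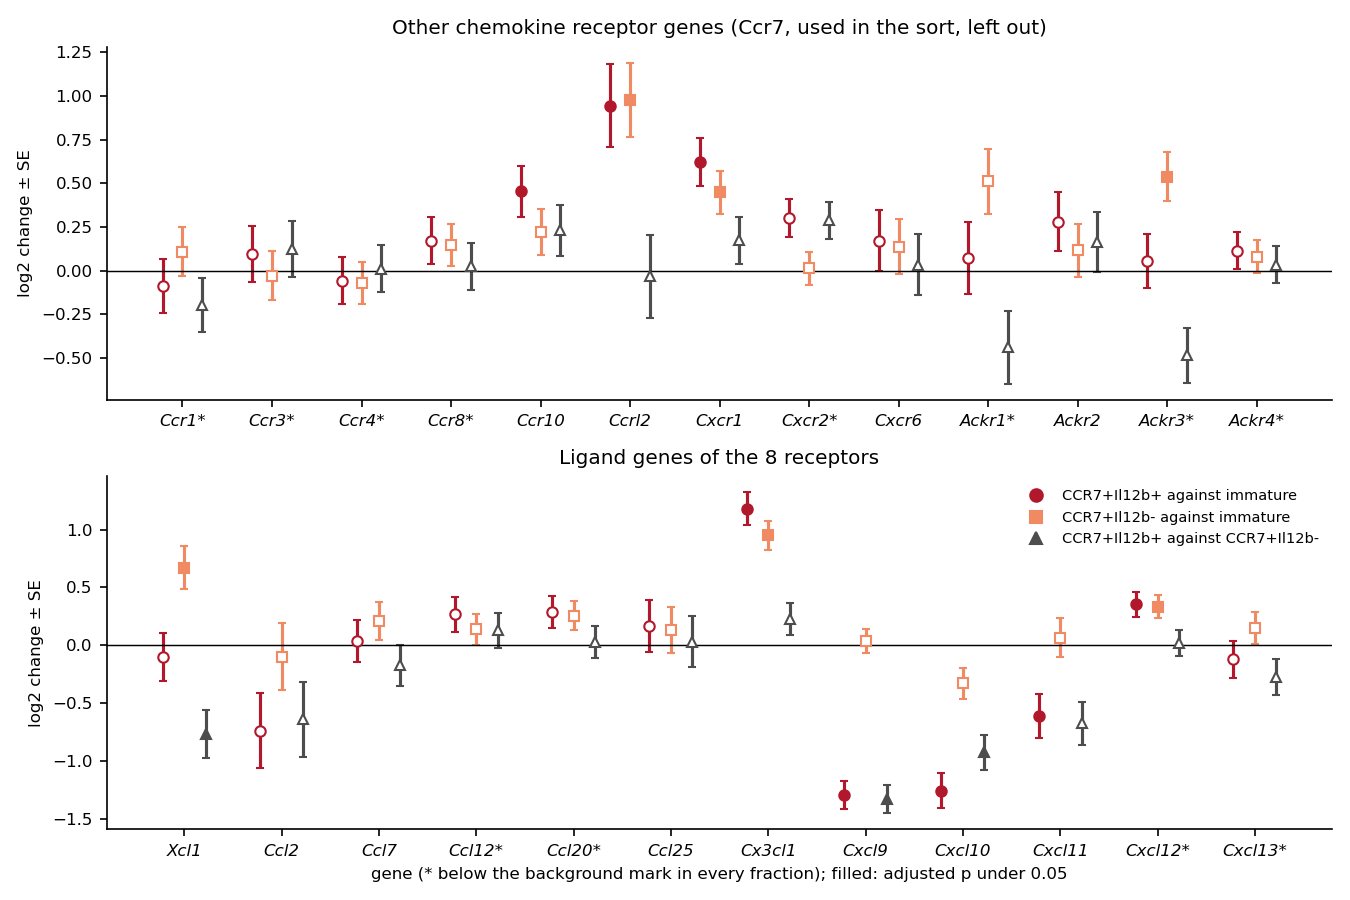
Log2 change with its standard error of the other chemokine receptor genes (top) and of the ligand genes of the 8 receptors (bottom) in the 3 comparisons, filled where the adjusted p was under 0.05. Ccrl2 lies at 0.94 and 0.98 in both comparisons with immature cells, Cx3cl1 at 1.18 and 0.95, and Cxcl9 at -1.30 and -1.33 in the comparisons of CCR7+Il12b+ cells.

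Chemokine receptors signal through inhibitory G proteins to phospholipase C, the kinase PI3Kγ and Rac. Of 25 genes of this list, all measured, 10 fell and 6 rose in CCR7+Il12b+ against immature cells, 7 fell and 7 rose in CCR7+Il12b- against immature cells, and 5 fell and 1 rose between the CCR7+ fractions. The list's median log2 change was -0.13 in CCR7+Il12b+ against immature cells, -0.07 in CCR7+Il12b- against immature cells and 0.02 between the CCR7+ fractions. Plcb2, a phospholipase C of leukocytes, fell in all 3, with log2 changes of -3.20 ± 0.18 SE in CCR7+Il12b+ against immature cells, -1.43 ± 0.16 in CCR7+Il12b- against immature cells and -1.76 ± 0.18 in CCR7+Il12b+ against CCR7+Il12b- cells. Rac2, the haematopoietic Rac, also fell, with changes of -2.35 ± 0.16, -1.18 ± 0.14 and -1.18 ± 0.16 in the same comparisons. Gnb4, a G protein β subunit, rose by 3.28 (SE 0.23) and 2.07 (SE 0.20) in CCR7+Il12b+ and CCR7+Il12b- against immature cells. Its rise of 1.21 between the CCR7+ fractions was lost without CCR7+Il12b+ replicate 1 (adjusted p = 0.0964).

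Signalling is ended by receptor kinases, arrestins and regulators of G protein signalling, of which 14 of 16 listed genes were measured. In CCR7+Il12b+ against immature cells 7 rose and 5 fell, in CCR7+Il12b- against immature cells 6 rose and 4 fell, and between the CCR7+ fractions 0 rose and 1 fell (4 and 3 at an unadjusted p under 0.05). Rgs18 was at least 4.56-fold lower in CCR7+Il12b+ than in immature cells and fell by 1.84 in CCR7+Il12b- against immature cells (SE 0.14). Arrb1, the gene of β-arrestin 1, fell in CCR7+Il12b+ (log2 change -2.11 ± 0.23 SE) and in CCR7+Il12b- cells (-1.38 ± 0.21) against immature cells. Rgs3 rose by 1.53 (SE 0.13) in CCR7+Il12b+ and by 1.31 (SE 0.12) in CCR7+Il12b- against immature cells, but by 0.79 and 0.59 when all its rows of the table were averaged. Rgs1, which dampens chemokine responses of lymphocytes, rose by 1.62 in CCR7+Il12b+ against immature cells (SE 0.12). Neither list moved in 1 direction.

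The genes whose pattern over the 8 arrays was most like each receptor were found by Pearson's r among 12925 genes above the mark in some fraction. Genes with only a predicted or clone name, such as those named Gm, LOC or Rik, were passed over in the ranking and in the counts. These values describe the arrays, whose fractions stand apart, so that genes with a similar order and spacing of the fractions have a high r. For Xcr1 the closest were Fkbp15, P2ry14, a receptor of UDP-glucose, and Samd9l, an interferon-induced gene (r = 0.999, 0.998 and 0.998), and 697 genes had an r above 0.95. For Ccr9 they were Map4k1, a kinase that restrains lymphocyte activation, Trmt112 and Mcm6, a subunit of the replicative helicase (0.998, 0.998 and 0.996), with 1030 genes above 0.95. For Cxcr3 they were Osgep, Sdhb, a subunit of succinate dehydrogenase, and Grpel1 (0.995, 0.993 and 0.992), with 488 genes, and for Ccr2 Adgrf5, Egln1, an oxygen-sensing prolyl hydroxylase, and Flot1 (0.990, 0.989 and 0.987), with 144 genes. Fewer genes had an r above 0.95 with each of the other 3, of which Cx3cr1 and Cxcr4 were called in no comparison. For Cx3cr1 the closest were Ring1, Rgs9 and Tspyl3 (0.980, 0.979 and 0.977), with 11 genes above 0.95, and for Ccr6 Cd8b1, the gene of the CD8 β chain, Col17a1 and Bcl9l (0.975, 0.965 and 0.964), with 5 genes. For Cxcr4 they were Ramp3, Abi1 and Septin8 (0.964, 0.958 and 0.951), and these were the 3 counted genes above 0.95. Cxcr5 was below the mark and was given none.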

How the data were processed

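RNA of 8 sorted samples was measured on 1 array each. The input was 3 or 20 ng of column-purified RNA, taken through 2 amplification rounds to biotinylated probes, per the labels' protocols; the sources used here do not say which sample had which input. The deposited values are log2 expression values that the submitters' processing notes credit to RMA and the package oligo; the versions, options and genome build of that step have no record in the sources used here. The quantile step usual in RMA hides a change of total RNA per cell.

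Of 35556 rows, 21789 had 1 gene symbol in the platform annotation, 1621 had several and 12146 had none in the table used. The row with the highest mean was kept for 999 genes with more than 1 row, which gave 19938 genes. No gene was removed for low values. All 8 arrays entered 1 linear model, a mean per group, fitted by limma 3.58.1 under R 4.3.3 (lmFit, eBayes; 5.86 prior and 5 residual degrees of freedom), with two-sided tests. Adjusted p-values are Benjamini-Hochberg values over all 19938 genes, with calls made under 0.05. Changes are differences between log2 means, and SEs are those of the model. Nothing in the labels says that replicates were separate mice: the p-values then reflect only how far these samples spread, possibly for technical reasons. Precision is limited by the number of arrays.

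Groups came from the sort in the labels. The members, gene lists, motifs and tests were chosen with earlier results of these data known. Named were all members, called receptors and ligands above the mark, and, in the other lists, genes with the largest changes, up to 4 per comparison in the pathway lists and up to 3 in marker lists, not all of which are printed. Alternatives were median centring, quantile and cyclic loess normalization, 2 filters on low genes, the mean of all rows of a gene, the replicate number as a block, only the 2 groups compared, array weights, and each array left out. Promoter sequences and gene order are from RefSeq GRCm38.p6. The fitting was tested on simulated data.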

Additional observations from a re-analysis of the deposited data

How the results depend on the processing

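Xcr1, Ccr2, Ccr9 and Cxcr3 kept their direction and their call against immature cells under every alternative run, as did Xcr1 and Ccr9 between the CCR7+ fractions. With each array left out in turn, 712 to 1771 genes were called in CCR7+Il12b+ against CCR7+Il12b- cells (1412 with all arrays). The count was 712 without CCR7+Il12b+ replicate 1, 786 without CCR7+Il12b- replicate 2 and 925 without CCR7+Il12b- replicate 1. It was 1771 without CCR7+Il12b- replicate 3 and 1421 without immature replicate 1, so it depended on which array was left out. The cause of these differences was not tested. In the same fits 4982 to 6617 genes were called in CCR7+Il12b+ and 3290 to 4962 in CCR7+Il12b- against immature cells. Array weights raised the last count to 6492. Among the members, sign changes were found only for Cxcr4 and Cx3cr1, whose differences were not called, and their cause was not tested. The log2 change of Cxcr4 was -0.034 after quantile normalization in CCR7+Il12b+ against immature cells, and between the CCR7+ fractions 0.012 after cyclic loess, 0.03 without CCR7+Il12b- replicate 1 and 0.11 without CCR7+Il12b+ replicate 2. That of Cx3cr1 between the CCR7+ fractions was -0.12 with the replicate block, -0.090 with array weights, -0.17 without CCR7+Il12b- replicate 3 and -0.38 without CCR7+Il12b+ replicate 2, against 0.41 without CCR7+Il12b+ replicate 1. Cx3cr1 in CCR7+Il12b- against immature cells was called after median centring, under both filters, with only the 2 groups, with array weights and with the fixed replicate block (adjusted p = 0.0187 to 0.0392). Cxcr5 has no value under the filters, nor has Ccr6 under the stricter one, because they lie below them. Deviations from the group means of samples with the same replicate number had r from -0.138 to 0.0917 between CCR7+ and immature cells, and 0.213 and 0.127 between the CCR7+ fractions. The 2 CCR7+Il12b+ arrays deviate from their mean by equal and opposite amounts. Their values of r are therefore not independent, and these values cannot decide whether the samples were paired. The labels name nothing shared, and the numbers were not taken to pair the samples. With the replicate block as a fixed term 5767, 4318 and 1153 genes and 6, 7 and 3 members were called in CCR7+Il12b+ against immature, CCR7+Il12b- against immature and CCR7+Il12b+ against CCR7+Il12b- cells, and as a random block 6089, 4428 and 1234 genes and 5, 6 and 3 members. Cx3cr1 was the member added by the fixed replicate block in both comparisons with immature cells. Array signal near background limits Ccr6 and Cxcr5.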
